A study of Mus musculus with 6 samples.

Results

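The transcripts of 52 genes of the cell cycle and of DNA replication were followed in bulk RNA of mouse pancreatic acini, the clusters of enzyme-secreting cells of the exocrine pancreas. The genes were taken by name from the 56953 genes of the count table, and 23 of them serve the copying of DNA (replication genes) and 29 the separation of chromosomes and cells (mitosis genes). A minimum count kept 14738 genes for testing, and 50 of the 52 genes were among them. E2f8, a late E2F repressor, and Ttk, a kinase of the spindle checkpoint, stayed below it.

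All 6 libraries came from primary acini embedded in Matrigel and kept for 3 days in serum-containing medium with dexamethasone, a setting in which acinar cells lose their identity and form duct-like structures (acinar-to-ductal metaplasia, ADM). Acini of wild-type mice (WT, 2 libraries) and acini of Dkk3-null mice (DD, 2 libraries) received no treatment, and further DD acini received recombinant DKK3 (DD + rDKK3, 2 libraries), the secreted glycoprotein that the null mice lack. The null allele is ubiquitous and was made by replacing exon 2 of Dkk3. By the labels the WT mice were 10 and 11 weeks old, the DD mice 12 and 13 weeks, and the mice of the treated cultures 14 and 15 weeks. These ages step up by exactly 1 week from library to library, so they may not be recorded ages. Taken as given, they differ by group, and the effects of age and of group cannot be told apart. WT 2 was labelled female and the other libraries male. The ages and sexes, if right, describe a different mouse for each library of a group, but no label names the mice, and p-values measure only the spread between these libraries. Dkk3 itself had 10 counts in WT 1, 1 in WT 2, 11 in DD 1, 9 in DD 2 and 5 in each treated library, and a count over the whole gene does not show whether exon 2 is present.

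A dividing cell first copies its genome and then separates the copies. Cyclin E and the E2F factors start the first step, in which licensed origins load the MCM helicase and the enzymes of nucleotide synthesis feed the polymerases, and their genes are commonly switched on through E2F sites in the promoter. Cyclin B, Cdk1, the aurora kinases and the kinetochore carry out the second step, and their genes are commonly held by a CHR element (cell cycle genes homology region) beside CCAAT boxes, which the DREAM complex and the MYB-FOXM1 machinery read in turn. Adult acinar cells seldom divide, and in ADM they can enter the cycle again.

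Such promoter motifs were counted in both classes. RefSeq promoter windows, from 250 bases before to 50 after the start of a gene on GRCm38.p6, were available for 44 of the 52 genes, and both strands were searched for an E2F-type site (TTTGGCGC, TTTCCCGC, TTTGCCGC or TTTCGCGC), a CHR element (TTTGAA or TTCGAA, the latter reading the same on both strands and counted a single time) and a CCAAT box (CCAAT). No motif contains another. Where a gene had more than 1 window, a motif in any of them was counted for the gene. An E2F-type site was found for 9 of 20 replication genes with a window (45%) and for 1 of 24 mitosis genes (4.17%), against 2.6% of all 27025 genes. A CHR element was found for 4 of 20 replication genes (20%) and for 18 of 24 mitosis genes (75%), against 21.7% of all genes. A CCAAT box was found in 60%, 75% and 41.1% in the same order. The genes with an E2F-type site were Mcm3, Mcm5, Mcm6, Mcm7, Cdt1, Cdc6, Uhrf1, Hells, E2f2 and, among mitosis genes, Cdk1. These matches describe the letters of the windows and are not measured binding sites.

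Shown are the 250 bases before the start of the 3 genes of each class with the highest mean CPM, not corrected for length, that held any of the motifs, 5′ to 3′ on the strand of the gene, with E2F-type sites, CHR elements and CCAAT boxes in capitals. Where a gene had more than 1 window, the one with the most motifs before the start is shown. The replication genes came first: Pcna encodes the sliding clamp, Rrm2 a subunit of ribonucleotide reductase and Mcm7 a subunit of the helicase.
Pcna (chr2:132253181-132253430, minus strand): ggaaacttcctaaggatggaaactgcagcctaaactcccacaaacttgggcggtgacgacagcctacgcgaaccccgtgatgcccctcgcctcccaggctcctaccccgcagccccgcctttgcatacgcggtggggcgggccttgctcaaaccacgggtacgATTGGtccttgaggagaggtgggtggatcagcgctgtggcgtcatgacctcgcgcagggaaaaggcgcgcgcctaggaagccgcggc
Rrm2 (chr12:24708004-24708253, plus strand): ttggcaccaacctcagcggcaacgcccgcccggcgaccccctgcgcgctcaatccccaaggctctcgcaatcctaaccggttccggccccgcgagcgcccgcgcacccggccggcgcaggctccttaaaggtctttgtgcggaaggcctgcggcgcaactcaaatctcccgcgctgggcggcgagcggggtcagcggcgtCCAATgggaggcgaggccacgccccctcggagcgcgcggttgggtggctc
Mcm7 (chr5:138171884-138172133, minus strand): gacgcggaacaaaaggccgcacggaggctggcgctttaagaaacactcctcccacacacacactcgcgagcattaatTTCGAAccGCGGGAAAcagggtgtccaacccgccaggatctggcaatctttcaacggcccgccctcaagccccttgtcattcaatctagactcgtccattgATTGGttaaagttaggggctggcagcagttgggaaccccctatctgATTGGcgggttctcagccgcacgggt
The mitosis genes followed: Top2a encodes the topoisomerase that untangles sister chromosomes, Cdk1 the mitotic kinase and Mki67 the Ki-67 protein of the chromosome surface.
Top2a (chr11:99024190-99024439, minus strand): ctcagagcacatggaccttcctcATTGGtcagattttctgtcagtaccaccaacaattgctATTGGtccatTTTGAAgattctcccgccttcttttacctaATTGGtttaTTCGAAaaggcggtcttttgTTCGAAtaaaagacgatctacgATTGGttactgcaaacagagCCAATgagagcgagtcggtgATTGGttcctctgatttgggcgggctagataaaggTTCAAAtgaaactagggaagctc
Cdk1 (chr10:69352913-69353162, minus strand): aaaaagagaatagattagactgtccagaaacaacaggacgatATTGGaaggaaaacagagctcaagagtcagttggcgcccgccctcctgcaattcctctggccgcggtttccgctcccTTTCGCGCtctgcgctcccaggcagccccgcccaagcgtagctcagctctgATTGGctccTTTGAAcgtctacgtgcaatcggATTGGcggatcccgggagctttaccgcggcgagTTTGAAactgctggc
Mki67 (chr7:135716380-135716629, minus strand): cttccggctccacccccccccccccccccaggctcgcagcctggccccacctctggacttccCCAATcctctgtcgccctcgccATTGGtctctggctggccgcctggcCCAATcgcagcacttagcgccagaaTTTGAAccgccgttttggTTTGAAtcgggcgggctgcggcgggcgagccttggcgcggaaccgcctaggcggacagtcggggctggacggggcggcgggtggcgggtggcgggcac
In the 250 bases shown, Top2a held 6 CCAAT boxes and 4 CHR elements, Cdk1 and Mki67 each held 3 CCAAT boxes and 2 CHR elements, and Pcna and Rrm2 each held 1 CCAAT box and neither of the other motifs. Coordinates of these windows belong to GRCm38.p6, whereas the counts were made on GRCm39.

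Library totals lay between 12018473 and 19750401 counts. Levels are given as CPM, the counts of a gene relative to the library total after scaling by TMM (trimmed mean of M values). All 13 acinar markers were detected in each library, and the 6 lymphocyte markers summed to 0 to 3 counts. The libraries differed in the level of markers of cells other than acinar cells. The 18 fibroblast and stellate cell markers, none of them at 0 in any library, summed to 317.5 and 204.4 CPM in WT, 194.2 and 1475 CPM in DD, and 329.7 and 1450 CPM in DD + rDKK3. The 8 macrophage markers, also detected in all libraries, summed to 115.5 and 57.53, 69.43 and 239.1, and 83.39 and 184.3 CPM in the same order. DD 2 and DD + rDKK3 2 were thus the high libraries on both lists. The 8 endothelial markers were also highest there, at 228.6 and 207.2 CPM, with 204.7 CPM in WT 2. The 8 ductal markers summed to 2485 and 1907, 1777 and 2667, and 1736 and 1891 CPM in the same order. The 6 islet markers were lowest in DD + rDKK3 2, at 91.54 CPM. The 4 mesothelial markers, some at 0, were highest in DD 2 at 34.69 CPM. Their sum was 13.77 CPM in DD + rDKK3 2 and 14.67 CPM in DD 1. In bulk RNA, fewer cells of a type and less RNA per cell cannot be told apart.

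The 23 replication genes summed to 234.7 and 208.5 CPM in WT, 221 and 249.1 CPM in DD, and 194.4 and 212.1 CPM in DD + rDKK3. The highest library was DD 2 and the lowest DD + rDKK3 1, and both treated libraries lay below both DD libraries. The 29 mitosis genes summed to 77.12 and 59.99 CPM in WT, 58.49 and 106.5 CPM in DD, and 45.37 and 84.44 CPM in DD + rDKK3, and here all 3 groups overlapped. Of the counts of the 52 genes, those of mitosis genes made up 24.7% in WT 1 (exact 95% binomial interval 23.2 to 26.3), 22.3% in WT 2 (21 to 23.7), 20.9% in DD 1 (19.9 to 22) and 29.9% in DD 2 (28.8 to 31.1). The share was 18.9% in DD + rDKK3 1 (17.8 to 20.1) and 28.5% in DD + rDKK3 2 (27.3 to 29.7). The share was highest in the same libraries in which the fibroblast and macrophage markers were highest. The part of those cells in the mitosis transcripts was not tested.

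**Figure D1:**
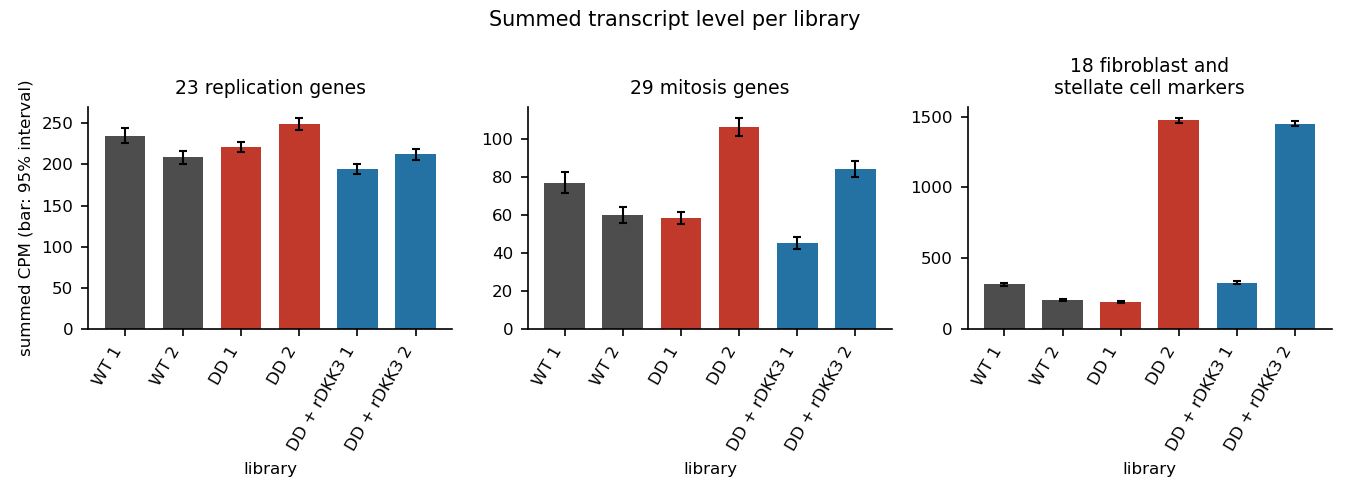
Summed CPM of the 23 replication genes, the 29 mitosis genes and the 18 fibroblast and stellate cell markers in each library, with exact 95% Poisson intervals that cover counting error only. Mitosis genes reached 106.5 CPM in DD 2 and 84.44 CPM in DD + rDKK3 2, the libraries in which the fibroblast and stellate markers summed to 1475 and 1450 CPM.

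Within a group, the mitosis genes moved as a body between the libraries. DD 2 exceeded DD 1 for 27 of the 28 mitosis genes tested, with a median log2 difference of 0.87, and DD + rDKK3 2 exceeded DD + rDKK3 1 for 28 of 28, with a median of 0.90. In WT the second library was the higher for 7 of 28, with a median of -0.26. The replication genes differed less between libraries of a group, with a median of -0.15 for WT, 0.27 for DD and 0.16 for the treated acini, and the corresponding medians of all 14738 genes were 0.0061, -0.022 and 0.0025. DD 2 was the highest of the 6 libraries for 18 of the 29 mitosis genes and DD + rDKK3 1 the lowest for 19. Among the 23 replication genes DD 2 was the highest for 10 and DD + rDKK3 1 the lowest for 8.

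**Figure D2:**
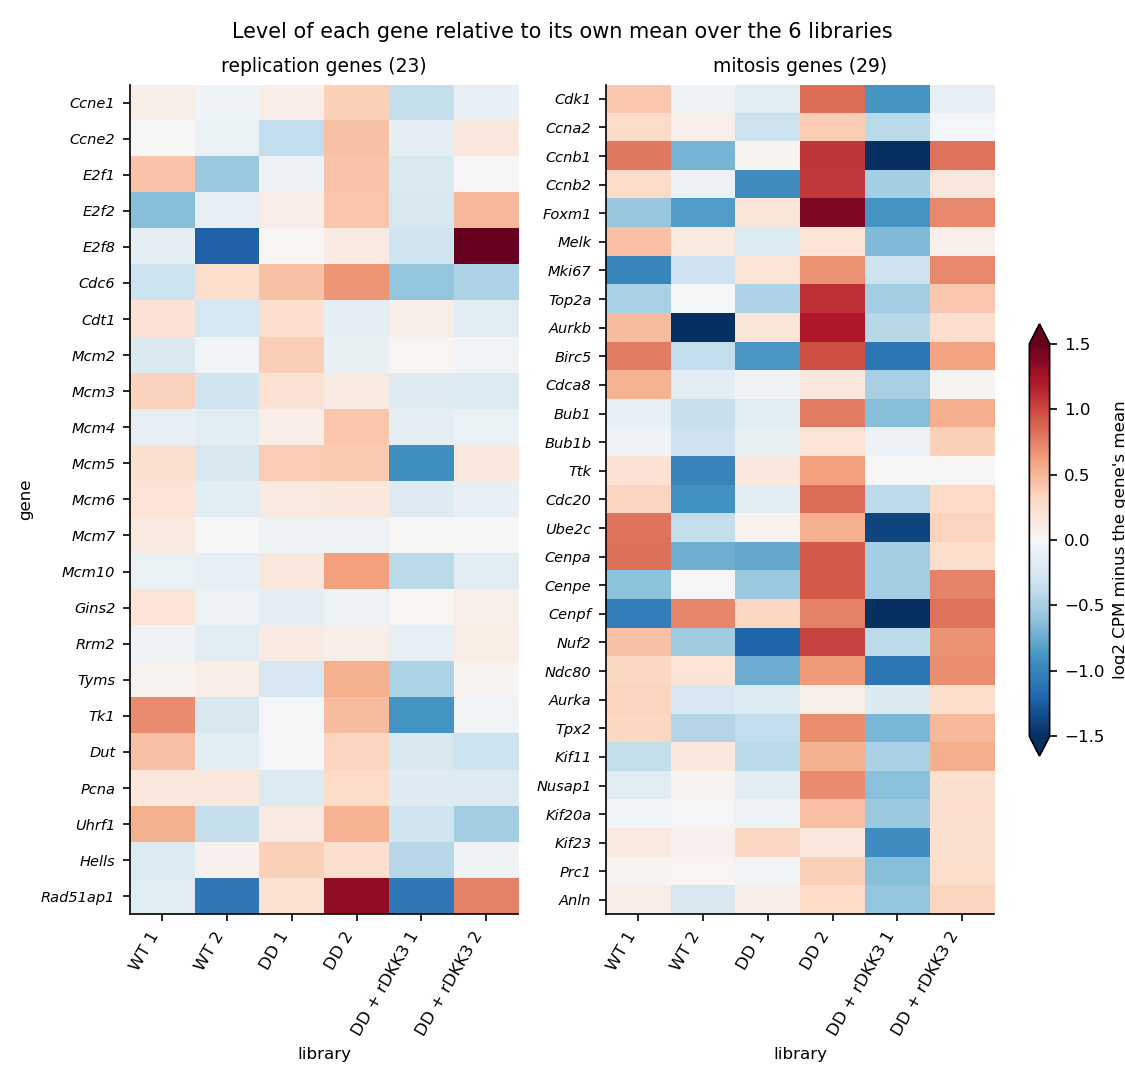
Log2 CPM of each of the 52 genes in each library (columns), less the mean of the gene over the 6 libraries (rows, ordered by role), with red above and blue below that mean. Most mitosis genes were red in DD 2, which was the highest library for 18 of 29, and blue in DD + rDKK3 1, the lowest for 19 of 29, while the replication genes showed smaller departures.

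Per kilobase of exon, 9 of the 10 most abundant of the 52 genes were replication genes. The length merged every annotated exon of a gene and can exceed that of its main transcript. Cenpa, for example, was given 13355 bases. The order depends on these lengths, and genes with a short main transcript may rank too low. Pcna had a mean of 19.2 CPM per kb over the 6 libraries and Rrm2 13.0 CPM per kb, followed by Mcm7 with 4.77. Gins2, a subunit of the GINS complex that activates the helicase, and Mcm6 had 2.58 and 2.55 CPM per kb and did not differ beyond the spread of their group means, which ran from 2.38 to 2.69 and from 2.26 to 2.80. The first mitosis gene in this order was Ccna2 with 2.36 CPM per kb, cyclin A, which acts in S phase as well as in mitosis. Mki67 had 0.369 CPM per kb, and the lowest was Cenpf, a kinetochore protein with a long transcript, at 0.0577 CPM per kb.

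Among the starters of S phase, the cyclin E gene Ccne1 had 4.62 and 4.14 CPM in WT, 4.64 and 5.53 CPM in DD, and 3.38 and 3.98 CPM in DD + rDKK3. The 3 groups did not overlap, with DD highest and DD + rDKK3 lowest, but WT 1 and DD 1 were nearly level. Their 95% counting intervals were 3.39 to 6.14 and 3.77 to 5.65 CPM. Ccne2, the second cyclin E gene, ranged from 2.74 to 4.82 CPM with both extremes in DD. The activator E2f1 ranged from 2.95 CPM in WT 2 to 5.82 CPM in DD 2, and E2f2 from 1.28 CPM in WT 1 to 2.80 CPM in DD + rDKK3 2. E2f8, below the count minimum, had 2 to 7 counts in 5 libraries and 17 counts in DD + rDKK3 2, so that DD + rDKK3 2 stood above the others.

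Origin licensing and the helicase were covered by 10 genes. Cdc6, which loads the helicase onto origins, had 0.884 and 1.33 CPM in WT, 1.51 and 1.76 CPM in DD, and 0.739 and 0.807 CPM in DD + rDKK3. These values rest on 9 to 32 counts per library, and the 3 groups did not overlap. Mcm4, a helicase subunit, had 7.27 and 7.09 CPM in WT, 8.42 and 10.5 CPM in DD, and 7.18 and 7.37 CPM in DD + rDKK3. Mcm5, another subunit, had 5.99 and 4.28, 6.58 and 6.64, and 2.69 and 5.65 CPM in the same order. Both were highest in the DD libraries. Mcm2, Mcm3 and Mcm6 ranged from 8.84 to 13.2, from 6.81 to 10.6 and from 12 to 15.8 CPM. Mcm7 was nearly level, with 29.3 and 26.6 CPM in WT, 25.6 and 25.5 CPM in DD, and 27.2 and 26.7 CPM in DD + rDKK3. Cdt1, the partner of Cdc6, ranged from 4.85 to 6.91 CPM, Gins2 from 9.51 to 12.1 CPM, and Mcm10, which helps to fire the origin, from 0.634 CPM in DD + rDKK3 1 to 1.29 CPM in DD 2.

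Of the genes of nucleotide supply, Rrm2 had 41.1 and 38.5 CPM in WT, 46.9 and 46.1 CPM in DD, and 39.4 and 46.5 CPM in DD + rDKK3. Thymidylate synthase (Tyms) ranged from 6.97 to 14.1 CPM, and thymidine kinase (Tk1) from 1.16 CPM in DD + rDKK3 1 to 3.54 CPM in WT 1. Dut, which destroys dUTP, had 8.35 and 5.48 CPM in WT, 6.06 and 7.76 CPM in DD, and 5.23 and 4.95 CPM in DD + rDKK3. The DD + rDKK3 libraries were the 2 lowest for Dut.

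Among the genes of the clamp, chromatin copying and repair, Pcna had 51.1 and 50.9 CPM in WT, 39.5 and 55.7 CPM in DD, and 39.9 in both DD + rDKK3 libraries. The DD libraries enclosed all others. Uhrf1, which carries DNA methylation over to the new strand, had 4.03 and 2.18 CPM in WT, 3.08 and 4 CPM in DD, and 2.27 and 1.94 CPM in DD + rDKK3. Hells, a chromatin remodeller, ranged from 1.95 CPM in DD + rDKK3 1 to 3.36 CPM in DD 1. Rad51ap1, a DNA repair gene, had 3 to 19 counts per library and ranged from 0.211 to 1.12 CPM.

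Of the mitotic cyclins, Cdk1 and their regulators, Cdk1 had 5.01 and 3.65 CPM in WT, 3.36 and 6.76 CPM in DD, and 2.06 and 3.50 CPM in DD + rDKK3. The DD libraries enclosed the WT values. Ccna2 had 11.5 and 9.97, 7.52 and 12.3, and 7.13 and 9.36 CPM in the same order. Foxm1, the transcription factor that drives late cell cycle genes, had 0.589 and 0.492 CPM in WT, 0.994 and 2.29 CPM in DD, and 0.475 and 1.45 CPM in DD + rDKK3, from 6 to 39 counts per library. Both DD libraries were above both WT libraries. Ccnb1, a cyclin B gene, ranged from 0.423 CPM in DD + rDKK3 1 to 3.59 CPM in DD 2. The other cyclin B gene, Ccnb2, ranged from 1.18 to 4.70 CPM with both extremes in DD, and the kinase gene Melk from 1.00 to 2.16 CPM.

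For chromosome structure, Mki67 had 1.77 and 2.81 CPM in WT, 4.02 and 5.58 CPM in DD, and 2.80 and 5.75 CPM in DD + rDKK3. WT 1 was the lowest library, and the DD libraries lay above both WT libraries. Top2a had 3.73 and 5.13, 3.79 and 11.2, and 3.64 and 6.94 CPM in the same order, so that DD 2 stood above the other libraries. Of the chromosomal passengers, which correct the attachment of chromosomes, the kinase gene Aurkb ranged from 0.351 CPM in WT 2, on 5 counts, to 2.59 CPM in DD 2. Birc5 (survivin) ranged from 0.898 to 3.70 CPM and Cdca8 (borealin) from 1.74 to 3.54 CPM.

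Among the remaining mitosis genes DD 2 was often the highest library and DD + rDKK3 1 often the lowest, but frequently not for the same gene. Of the spindle checkpoint and anaphase genes, Cdc20 and Ube2c, which activate and serve the anaphase-promoting complex, ranged from 1.33 to 4.47 and from 0.687 to 3.14 CPM. The checkpoint kinase genes Bub1 and Bub1b ranged from 0.687 to 1.82 and from 1.90 to 3.01 CPM, and Ttk had 3 to 11 counts. Of the centromere and kinetochore genes, Nuf2 had 2.06 and 1.05 CPM in WT, 0.663 and 3.06 CPM in DD, and 1.16 and 2.42 CPM in DD + rDKK3. This was a wide gap between the DD libraries. Cenpa, the histone of the centromere, ranged from 1.37 to 4.41 CPM with both extremes in DD, and Cenpe, Cenpf and Ndc80 ranged from 0.589 to 1.70, from 0.264 to 1.40 and from 0.370 to 1.29 CPM. The spindle assembly genes Aurka, Tpx2, Kif11 and Nusap1 ranged from 1.97 to 2.95, from 1.48 to 3.88, from 0.898 to 1.83 and from 0.792 to 2.00 CPM. The cytokinesis genes Kif20a, Kif23, Prc1 and Anln were lowest in DD + rDKK3 1, at 2.27, 0.739, 2.22 and 2.38 CPM, and reached at most 4.59, 1.75, 4.41 and 4.52 CPM.

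DD acini were set against WT acini to see which transcripts differ without DKK3. Most of the 50 genes tested had higher values in DD, in both classes, and no single gene passed the test. Of the tested genes, 18 of 22 replication genes and 22 of 28 mitosis genes were higher, with a median log2 fold change of 0.20 and 0.25, beside 51.7% of all genes and an all-gene median of 0.016. By edgeR's quasi-likelihood test with Benjamini-Hochberg adjustment over all genes, 0 of the 50 were called, beside 0.0407% of all genes, and DESeq2 and limma-voom also called 0. At an unadjusted p under 0.05, 1 of the 50 was higher, Mki67, beside 4.27% of all genes that were higher at that threshold. The acinar markers also differed between these groups: they summed to 157100 CPM in WT 1, 116400 CPM in WT 2, 100800 CPM in DD 1 and 87140 CPM in DD 2. Of the 13 acinar markers 10 were lower in DD (median -0.70 on the log2 scale). At an unadjusted p under 0.05, 5 were lower, beside 8.26% of all genes in either direction, and 0 were called with edgeR. The part of the acinar markers in the values of the cell cycle genes was not tested.

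Mki67 had a log2 fold change of 1.05 ± 0.43 (SE, 2 libraries a group, edgeR adjusted p = 0.586, 95% interval 0.051 to 2.05). Foxm1 had the largest difference, 1.59 ± 0.70, with an edgeR adjusted p of 0.586 and an interval from -0.029 to 3.21. Aurkb followed with 1.06 ± 0.70 (edgeR adjusted p = 0.606), and its WT libraries differed by more than its groups. Among the replication genes with the smallest p-values, Mcm4 had 0.40 ± 0.21 (edgeR adjusted p = 0.586), Rad51ap1 1.45 ± 0.82 (0.594) and Rrm2 0.23 ± 0.15 (0.606). Pcna had -0.10 ± 0.18 (edgeR adjusted p = 0.845), a value that was 0.10 with scaling to the library size alone and 0.15 without DD 1. These intervals are wide and do not show that the groups act alike.

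The classes differed in how firmly these values stood. The replication median stayed above 0 with each library left out in turn, between 0.12 and 0.35, although without WT 2 the higher genes numbered 12 of 22. The mitosis median was -0.24 without DD 2, with 9 of 28 genes higher, and 0.69 without DD 1, with 26 of 28 higher. Without DD 2 and DD + rDKK3 2 together, the libraries with the highest fibroblast and stellate marker sums, it was -0.25 and the replication median 0.11. Mki67 and Foxm1 stayed above 0 with each library left out, between 0.79 and 1.44 and between 0.88 and 2.11. Both DD libraries were above both WT libraries for 9 replication and 4 mitosis genes, and below for 1 and 0, beside 18.1% and 19.7% of all genes. The 4 mitosis genes were Foxm1, Mki67, Kif23 and Anln, and the gene below was Mcm7. Kif23 and Anln were nearly level between their closest libraries. Kif23 had 1.57 CPM in WT 1 and 1.59 CPM in DD 2, and Anln had 3.83 CPM in both WT 1 and DD 1.

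**Figure D3:**
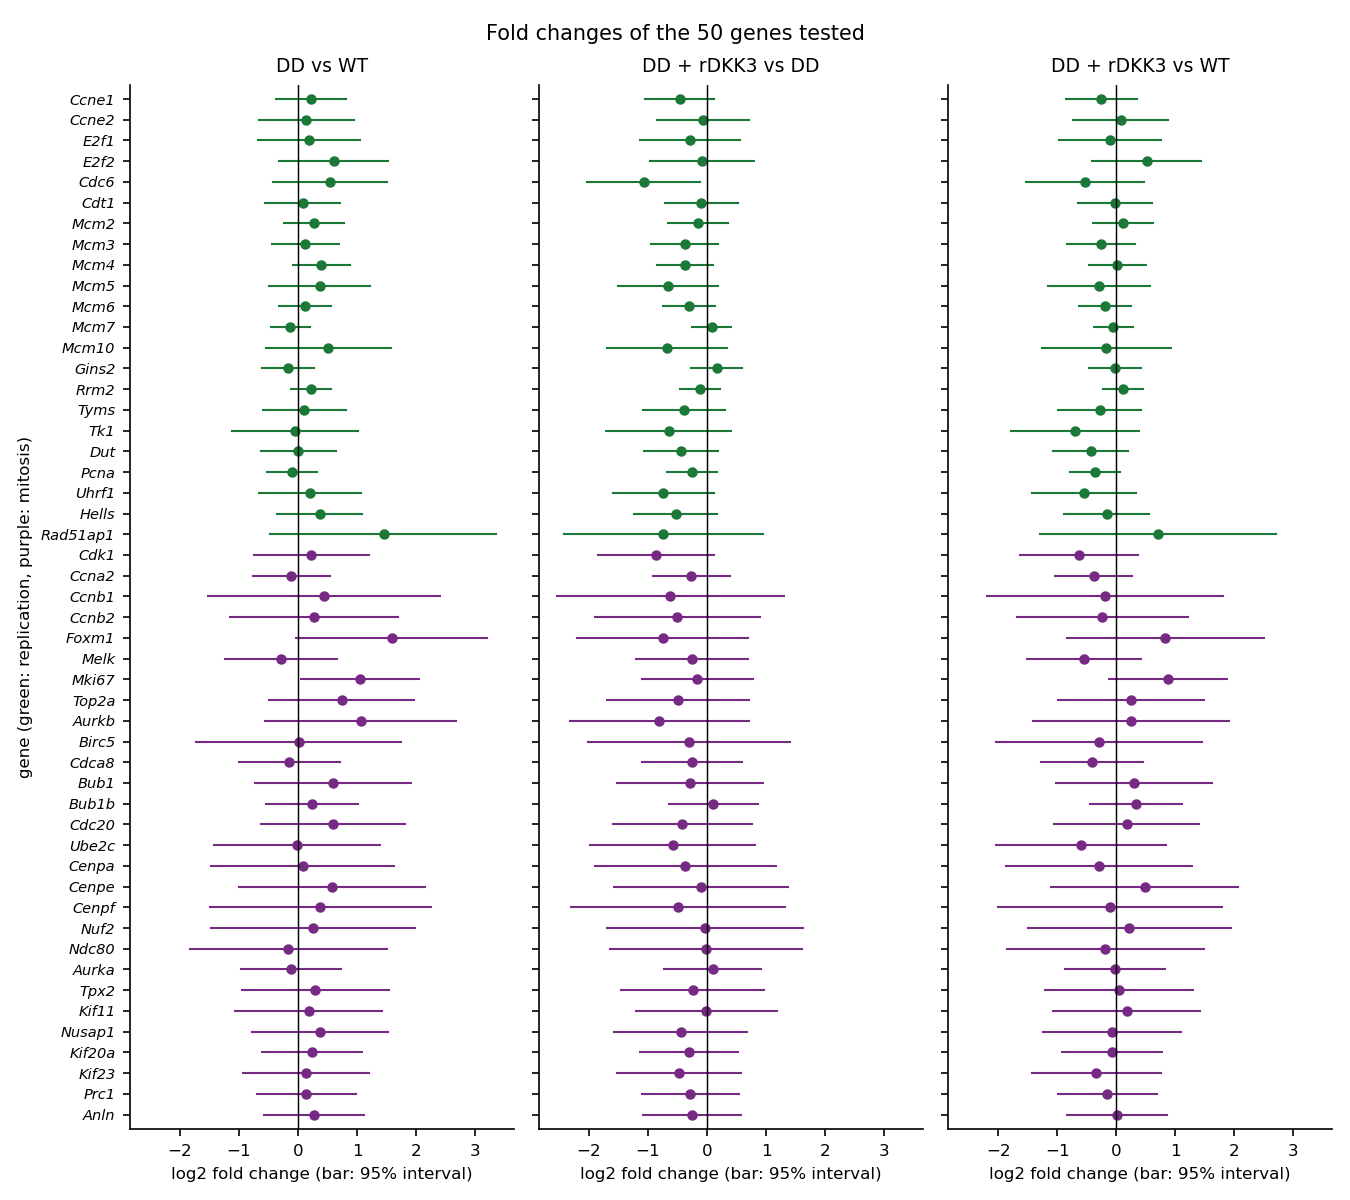
Log2 fold change (points, x axis) with its 95% interval from the edgeR fit for each of the 50 genes tested (y axis) in the 3 comparisons, with replication genes in green and mitosis genes in purple. Only the intervals of Mki67 in DD against WT and of Cdc6 in DD + rDKK3 against DD stayed clear of 0, and after adjustment over all genes 0 of 50 were called in each comparison.

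Treated DD acini were then set against untreated DD acini, to see what differs when the protein is given back. Most of the 50 genes tested had lower values in the treated acini, in both classes, and no single gene passed the test without a replicate block. Of the tested genes, 20 of 22 replication genes and 26 of 28 mitosis genes were lower, with a median log2 fold change of -0.38 and -0.30, beside 50.5% of all genes and an all-gene median of -0.0028. The exceptions were Mcm7 and Gins2 among the replication genes and Bub1b and Aurka among the mitosis genes. With edgeR 0 of the 50 genes were called, beside 0% of all genes, and DESeq2 and limma-voom called 0 of them too. At an unadjusted p under 0.05, 1 of the 50 was lower, Cdc6, beside 1.38% of all genes that were lower at that threshold.

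Cdc6 had a log2 fold change of -1.07 ± 0.41 (SE, 2 libraries a group, edgeR adjusted p = 1, 95% interval -2.03 to -0.12). Uhrf1 had -0.75 ± 0.37 and Mcm4 -0.38 ± 0.20, each with an edgeR adjusted p of 1. All 3 stayed below 0 with each library left out, Cdc6 between -1.20 and -0.96. Among the mitosis genes Cdk1 had -0.86 ± 0.42, Aurkb -0.81 ± 0.66 and Foxm1 -0.76 ± 0.63, with edgeR adjusted p-values of 1. The titles of same-numbered treated and untreated libraries share a name (DD1 or DD2), while their labelled ages differ. With a replicate block on that number within the 4 Dkk3-null libraries, Cdk1 was called (-0.85 ± 0.25, edgeR adjusted p = 0.0449), the only one of the 50 genes to be called. That fit called 194 of all 14665 genes, where the main fit called 0 of 14738. It uses 4 libraries, so fewer residual degrees of freedom remain than in the fit over 6 libraries. Its p-values followed from the estimates and SEs as in a normal distribution, so the spread of a single gene counted for little. The main fit had 3 residual and 4.634 prior degrees of freedom, and the calls of the block fit are less strict. Without the block, Mki67 had -0.17 ± 0.41 and Pcna -0.26 ± 0.18, likewise with an edgeR adjusted p of 1. Both turned with the libraries used: Mki67 had 0.088 without DD 2 and 0.25 without DD + rDKK3 1, and Pcna had 0.016 without DD 2.

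The replication median was below 0 with each library left out, between -0.53 and -0.26, and -0.33 without DD 2 and DD + rDKK3 2 together. The mitosis median was 0.11 without DD 2, 0.065 without DD + rDKK3 1, -0.72 without DD 1 and -0.88 without DD + rDKK3 2, and -0.44 without DD 2 and DD + rDKK3 2 together. Leaving out a single library sets unlike replicate numbers against each other, and the mitosis genes differed between the numbers within both groups. Between same-numbered libraries, for which no link was stated, the mitosis sum was lower in the treated one, 45.37 against 58.49 CPM and 84.44 against 106.5 CPM. With the replicate block within the Dkk3-null libraries the median was -0.32, with 3 of 28 genes higher. Both treated libraries were below both DD libraries for 11 replication and 0 mitosis genes, beside 14.4% of all genes, and above for 2 and 0, beside 15.1%. The 11 were Ccne1, Cdc6, Mcm3, Mcm4, Mcm5, Mcm6, Mcm10, Tk1, Dut, Uhrf1 and Hells. Of the 9 replication genes with an E2F-type site in the promoter window, 6 were among the 11 (Cdc6, Mcm3, Mcm5, Mcm6, Uhrf1 and Hells), and of the 11 with a window but no such site, the untested E2f8 included, 4 were (Ccne1, Mcm10, Tk1 and Dut). The search took exact letters only, and a link between the site and these values was not tested. The 13 acinar markers summed to 100800 CPM in DD 1, 87140 CPM in DD 2, 119600 CPM in DD + rDKK3 1 and 94070 CPM in DD + rDKK3 2, and their part in these values was not tested. If the labelled ages are right, age cannot be told apart from the treatment.

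**Figure D4:**
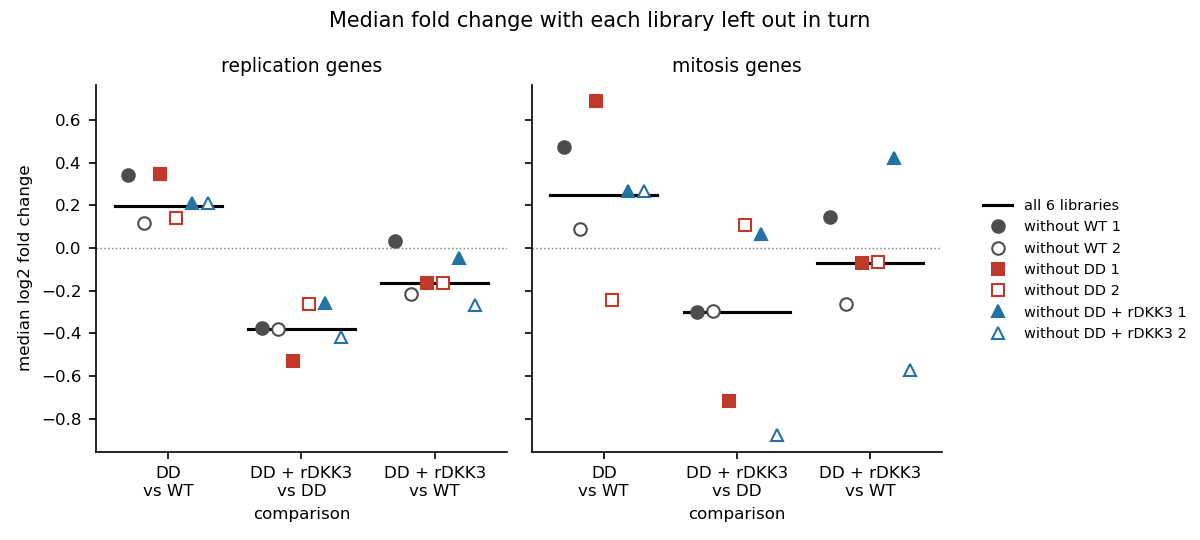
Median log2 fold change of the 22 replication and 28 mitosis genes tested (y axis) in each comparison (x axis), from all 6 libraries (line) and with each library left out in turn (symbols). For replication genes the medians of DD + rDKK3 against DD stayed between -0.53 and -0.26, whereas those of the mitosis genes ran from -0.88 to 0.11. Leaving out a library sets unlike replicate numbers against each other, and the mitosis genes were mostly higher in the second library of both these groups.

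In the comparison of DD + rDKK3 with WT, which set the treated acini beside the normal ones, replication genes were slightly lower and mitosis genes were mixed. Of the tested genes, 16 of 22 replication genes and 16 of 28 mitosis genes were lower, with a median log2 fold change of -0.17 and -0.07, beside 48.4% of all genes and an all-gene median of 0.017. With scaling to the library size alone the medians were -0.0059 and 0.095, where the all-gene median was 0.18. Relative to the all-gene median they were -0.18 and -0.086 with TMM and -0.19 and -0.085 with the library size alone. With edgeR 0 of the 50 genes were called, beside 0.0475% of all genes. At an unadjusted p under 0.05, 0 were higher and 0 lower, beside 7.34% and 8% of all genes. Limma-voom also called 0, and DESeq2 called 0 of the 2 genes to which it gave an adjusted p.

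Mki67 had 0.88 ± 0.43 (edgeR adjusted p = 0.347), and its treated libraries, at 2.80 and 5.75 CPM, overlapped with WT. Pcna had -0.35 ± 0.18 (edgeR adjusted p = 0.364), Dut -0.43 ± 0.28 (0.434) and Tk1 -0.70 ± 0.47 (0.449). Cdk1 had -0.63 ± 0.43 (edgeR adjusted p = 0.457) and Ccna2 -0.38 ± 0.28 (0.495). Among the mitosis genes, Mki67 was thus the higher and Cdk1 and Ccna2 the lower in treated acini, and none passed the test. Both treated libraries were below both WT libraries for 6 replication genes (Ccne1, Cdc6, Mcm10, Tyms, Dut and Pcna) and 3 mitosis genes (Cdk1, Ccna2 and Melk), beside 27.1% of all genes, and above for 0, beside 27.9%. The replication median was 0.034 without WT 1 and otherwise between -0.27 and -0.048 with a library left out, and the mitosis median ran from -0.57 without DD + rDKK3 2 to 0.42 without DD + rDKK3 1. The 3 comparisons share libraries, so their values are not independent of each other.

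Other genes of the same machinery were read from lists. Of 43 further replication genes, 42 were tested and 16 were higher in DD than in WT, with a median of -0.061, and of 48 further mitosis genes, 43 were tested and 31 were higher, with a median of 0.35. With edgeR 0 of either list were called. The smallest p-values belonged to Rfc4, a subunit of the clamp loader, with -0.52 ± 0.18, and to Ccnf, cyclin F, with 1.20 ± 0.47, both with an edgeR adjusted p of 0.586. Against DD, the DD + rDKK3 acini had 13 of 42 and 8 of 43 genes higher, with medians of -0.058 and -0.12. Pole, the leading-strand polymerase, had -0.85 ± 0.42, and Cit, citron kinase, -1.53 ± 0.60, with edgeR adjusted p-values of 1. Against WT the numbers higher were 12 of 42 and 24 of 43, with Gins4 at -0.56 ± 0.18 and Mad2l1, a checkpoint protein, at -0.82 ± 0.31 (edgeR adjusted p = 0.321 for both). The further replication genes thus lay closer to the all-gene medians than the 22 genes above in DD + rDKK3 against DD. In DD against WT they did not share the higher values of the 22 genes: 38.1% were higher, beside 81.8% of the 22 and 51.7% of all genes. Of the further mitosis genes 72.1% were higher in that comparison, beside 78.6% of the 28 above. The 48 further mitosis genes summed to 147 and 138.8 CPM in WT, 120.4 CPM in DD 1 and 168.9 CPM in DD 2. By sum, DD 1 was thus below both WT libraries and only DD 2 above them.

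Genes that hold the cycle back were read as well. Of 7 CDK inhibitor genes 6 were tested, and 0 were called with edgeR in each comparison. Cdkn1a, which encodes p21, had 465 and 405 CPM in WT, 521 and 420 CPM in DD, and 496 and 465 CPM in DD + rDKK3, and Cdkn1b, which encodes p27, had 32.8 and 41.9, 25.9 and 34.0, and 31.3 and 33.1 CPM. Their groups overlapped. Cdkn2b had the smallest p in DD + rDKK3 against DD, at -0.40 ± 0.43, and 0.30 without DD 2. Cdkn2a stayed below the minimum count, with at most 0.353 CPM. Of the 16 RB, DREAM and other E2F genes, 9 were higher in DD than in WT, with log2 fold changes from -0.66 to 1.94. At an unadjusted p under 0.05, 2 of them were higher, beside 4.27% of all genes. With edgeR 0 were called. The repressor E2f4 had 0.42 ± 0.16 in DD against WT (edgeR adjusted p = 0.586), Lin9 of the DREAM and MYB complexes 0.44 ± 0.26 in DD + rDKK3 against DD (adjusted p = 1 with edgeR), and Rbbp4 -0.58 ± 0.21 in DD + rDKK3 against WT (edgeR adjusted p = 0.321).

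Of the 9 genes of G1 cyclins and kinases, the cyclin D genes had the smallest p-values. Ccnd1, which carries growth signals to the cycle, had 31.1 and 27.7 CPM in WT, 32.7 and 29.5 CPM in DD, and 19.1 and 18.7 CPM in DD + rDKK3. Both treated libraries were below the other 4. Its log2 fold change was -0.72 ± 0.15 against DD (unadjusted p = 0.0016, edgeR adjusted p = 1) and -0.64 ± 0.15 against WT (edgeR adjusted p = 0.321), and it ranged from -0.79 to -0.66 and from -0.72 to -0.53 with each library left out. Ccnd2 had 40.7 and 45.6 CPM in WT, 56.1 and 53.0 CPM in DD, and 46.4 and 44.9 CPM in DD + rDKK3, with 0.34 ± 0.14 in DD against WT (edgeR adjusted p = 0.586). Without a replicate block, 0 of the 9 genes were called with edgeR in each comparison. With the block within the Dkk3-null libraries, a fit that called 194 of all 14665 genes, Ccnd1 was called against DD (-0.72, edgeR adjusted p = 0.00514).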

How the data were processed

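The 52 genes and all gene lists were chosen with earlier results of these data known. Strand-specific paired-end reads were aligned by the authors with STAR 2.7.9a to GRCm39 with the basic GENCODE M32 annotation. The authors counted alignments over exons in union mode, left out secondary alignments and summed exons per gene. The deposited values are raw counts, which do not show which exon or cell a read came from. From these counts, 92 spike-in rows with 0 counts were left out, genes were kept by filterByExpr (minimum count 10, minimum total 15), scaled by TMM and fitted with edgeR 4.0.16 (R 4.3.3), with a quasi-likelihood model over 6 libraries and 3 groups (3 residual degrees of freedom). All p-values are two-sided with Benjamini-Hochberg adjustment over 14738 genes and a threshold of 0.05. DESeq2 1.42.0 and limma 3.58.1 (voom), other scalings, no filter, a replicate block and each library left out were alternatives. The fit was tested on simulated counts. Exon lengths came from the GENCODE M39 annotation of GRCm39 and merged all annotated exons of a gene, whereas the counts used the basic M32 annotation. Intervals of counts (exact Poisson) and of shares (Clopper-Pearson) cover only counting error, as molecular identifiers were not used. Fold changes with errors are given for Mki67, Pcna and, per comparison, the 3 genes of each class and the top gene of each further list by p. Other fold changes in the text are ranges, medians and counts.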

Additional observations from a re-analysis of the deposited data

How the results depend on the processing

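The count of called genes (0 of 50 in each comparison with edgeR) was the same with RLE size factors, library size alone, no low-count filter, DESeq2, limma-voom, a replicate block over all 6 libraries and each library left out. DESeq2 gave an adjusted p to 47, 50 and 2 of the 50. The replicate numbers are shared between groups without a stated link. Same-numbered deviations from the group means correlated at -0.387 between WT and DD, -0.247 between WT and DD + rDKK3 and 0.65 between DD and DD + rDKK3 (across 14738 genes, which are not independent). As no link was stated, the numbers were not used as pairs in the main fit, although those of the Dkk3-null groups correlated positively. Blocks on the numbers were alternatives. With a replicate block within the 4 Dkk3-null libraries alone, 1 of the 50 genes was called in DD + rDKK3 against DD, Cdk1 (-0.85 ± 0.25, edgeR adjusted p = 0.0449), beside 194 of all 14665 genes. At an unadjusted p under 0.05 there were 13 of the 50, all of them lower, beside 7.47% of all genes in either direction. This fit has fewer residual degrees of freedom than the main fit, and its p-values were those of a normal distribution, so its calls are less strict. Ccnd1 was called in that fit as well (-0.72, edgeR adjusted p = 0.00514). The replicate block over all 6 libraries gave medians of 0.20 and 0.19 (replication and mitosis genes) in DD against WT, -0.37 and -0.32 in DD + rDKK3 against DD, and -0.16 and -0.099 in DD + rDKK3 against WT, and changed no other call.

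With library size alone the replication median in DD against WT was 0.422 (0.195 with TMM), and the all-gene median moved from 0.0164 to 0.219, so that relative to all genes it was 0.20 against 0.18. Pcna in DD against WT was 0.104 with library size alone and between -0.367 and 0.154 with a library left out. With a library left out the mitosis median ran from -0.876 to 0.110 in DD + rDKK3 against DD, from -0.24 to 0.69 in DD against WT and from -0.57 to 0.42 in DD + rDKK3 against WT. The replication median in DD + rDKK3 against WT ran from -0.266 to 0.0341. In DD + rDKK3 against DD, Mki67 ran from -0.784 to 0.247, Pcna from -0.506 to 0.0156 and Cdkn2b from -0.905 to 0.296 with a library left out, and Pcna was 0.0218 without DD 2 and DD + rDKK3 2. Leaving out those libraries and all alternatives for genes outside the 52 were chosen after seeing the data, and the causes were not tested. Where a library is left out, the lone library of its group is assumed to vary as the others do. The mitosis genes had 3 to 210 counts per gene and library, which limits their precision.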
